A study of Mus musculus with 32 samples.

Results

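The constitutive distal regions of the mouse limb bud were places away from protein-coding starts at which accessible chromatin was called in nearly every library of the series. Summits of all 32 lists were pooled, those on the mitochondrial chromosome were left out, and summits 200 bp or less apart were merged into 150776 regions. A region was kept when at least 30 of 32 lists held a summit in it and when it lay more than 5 kb and less than 100 kb from every protein-coding transcription start in GENCODE (mm10). This left 1711 regions, which were 2.33% of the 73479 distal regions and 15.1% of the 11316 regions with a summit in at least 30 lists. Of the other constitutive regions, 8880 lay 5 kb or less from a start and 725 lay 100 kb or more away. The members were chosen by the presence of summits, so the number of lists describes the choice and is not a result. Among the members, 577 had a summit in 32 lists, 597 in 31 and 537 in 30, and 532 distal regions stood just outside the threshold with 29 lists.

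ATAC-seq measures where DNA in chromatin is open to the Tn5 transposase, and the deposited lists give the position at which each open region was most accessible. The series asked how ETV2, an ETS family transcription factor, acts on chromatin of the limb bud and on Shh, the signal of the posterior limb bud. The libraries of Etv2-EYFP reporter embryos, whose transgene is driven by an Etv2 promoter fragment, were EYFP+ cells without CD31, TIE2 or CD45 from E10.5 forelimb (E10.5 FL EYFP+, n = 3) and hindlimb buds (E10.5 HL EYFP+, n = 3). Hindlimb cells also came from embryos at E9.5 (E9.5 HL, n = 1) and from Shh-EGFP embryos at E10.5, either from the anterior part (E10.5 Anterior, n = 1) or as EGFP+ posterior cells (E10.5 Posterior, n = 1). Posterior hindlimb cells came from Etv2CKO embryos (HoxB6-Cre Tg/+; Etv2 fl/-) at E10.5 (E10.5 CKO, n = 2) and E10.25 (E10.25 CKO, n = 5) and from wild-type embryos at E10.25 (E10.25 WT, n = 2). Etv2OE embryos were Tg/+ for HoxB6-Cre, for an inducible HA-tagged Etv2 transgene (iHA-Etv2) and for a Cre-dependent rtTA allele (ROSA26-STOP-rtTA-IRES-EGFP). Their hindlimb buds were divided into an anterior and a posterior part (n = 3 each), as were those of littermate controls that lacked part of this set (n = 4 each), and all dams were given doxycycline. HoxB6-Cre is active in the whole hindlimb precursor and only partly in the forelimb. The labels give E10.5 for the doxycycline experiment, whereas the methods describe a harvest at a later stage.

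Distal accessible regions include enhancers, which raise transcription of a gene at a distance, and binding sites of CTCF, the zinc finger protein that blocks cohesin and anchors chromatin loops. CpG-rich stretches are bound by factors such as SP and KLF proteins and are open in most cell types, and genes of small nuclear RNAs and tRNAs, which are transcribed in every cell, also hold open chromatin. Repeats that are present in more copies in the cell than in the assembly can collect reads and appear as peaks in any library.

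The sequences of members that carry the main features are given from the plus strand of GRCm38.p6, the assembly of mm10. The first 3 were CTCF members, chosen for the small spread of their summits, and the capitals mark the match to the CTCF consensus, which lay on the minus strand near Piwil4 and Cavin2 and on the plus strand near Uck2.
Piwil4 member, chr9:14699100-14699199: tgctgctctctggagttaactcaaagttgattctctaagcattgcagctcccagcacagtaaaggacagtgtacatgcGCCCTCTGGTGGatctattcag
Cavin2 member, chr1:51334066-51334165: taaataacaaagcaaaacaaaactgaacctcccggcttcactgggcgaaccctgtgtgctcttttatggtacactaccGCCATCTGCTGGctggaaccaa
Uck2 member, chr1:167220724-167220823: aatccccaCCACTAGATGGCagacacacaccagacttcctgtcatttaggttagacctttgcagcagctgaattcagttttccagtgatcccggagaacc

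Members near genes of limb development are shown for their ranks or for the pathway they stand beside. The capitals mark a TEAD word (GGAATG, read as CATTCC on the plus strand) for Axin2, a CCAAT box for Dusp6, an E-box word (CATCTG, read as CAGATG) for Hand2 and an SP and KLF word (GGGCGG, read as CCGCCC) for Meis2.
Axin2 member, chr11:109011813-109012012: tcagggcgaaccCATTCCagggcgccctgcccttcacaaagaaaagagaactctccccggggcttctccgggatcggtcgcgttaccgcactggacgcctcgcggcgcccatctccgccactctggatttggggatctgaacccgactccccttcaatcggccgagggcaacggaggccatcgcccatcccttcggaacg
Dusp6 member, chr10:99299006-99299205: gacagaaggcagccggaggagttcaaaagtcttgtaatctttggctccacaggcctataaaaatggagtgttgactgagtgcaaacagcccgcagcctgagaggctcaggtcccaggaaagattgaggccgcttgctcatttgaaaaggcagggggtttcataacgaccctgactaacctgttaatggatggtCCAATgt
Hand2 member, chr8:57353700-57353899: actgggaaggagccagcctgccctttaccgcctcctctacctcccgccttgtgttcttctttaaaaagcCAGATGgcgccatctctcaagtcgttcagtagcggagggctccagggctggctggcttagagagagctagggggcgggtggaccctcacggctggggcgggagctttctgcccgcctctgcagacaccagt
Meis2 member, chr2:116075957-116076156: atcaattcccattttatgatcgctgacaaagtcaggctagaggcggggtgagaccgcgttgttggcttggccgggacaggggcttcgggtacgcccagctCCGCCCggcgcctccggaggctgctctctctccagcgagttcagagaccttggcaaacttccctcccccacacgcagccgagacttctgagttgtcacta

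Repeats and small RNA genes are shown because they held many of the best ranks and the densest clusters. The capitals mark the base on which the summits of all lists fell for the member near Rpusd4, the bases of Rnu3b1 and of Rn4.5s, and words shared with the mitochondrial genome for the member in Myo3a.
Rpusd4 member, chr9:35305407-35305506: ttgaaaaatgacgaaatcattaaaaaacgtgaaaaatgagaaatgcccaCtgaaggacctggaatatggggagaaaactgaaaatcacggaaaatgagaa
Myo3a member, chr2:22589646-22589745: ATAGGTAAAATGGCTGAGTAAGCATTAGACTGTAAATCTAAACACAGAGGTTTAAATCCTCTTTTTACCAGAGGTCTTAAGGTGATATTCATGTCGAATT
Tex14 member, chr11:87443263-87443462: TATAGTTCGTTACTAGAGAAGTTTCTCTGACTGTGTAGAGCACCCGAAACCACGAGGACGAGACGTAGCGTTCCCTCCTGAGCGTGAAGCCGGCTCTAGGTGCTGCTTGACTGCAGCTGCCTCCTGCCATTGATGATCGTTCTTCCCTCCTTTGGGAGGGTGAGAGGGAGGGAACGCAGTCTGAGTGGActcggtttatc
Ezh2 member, chr6:47655051-47655250: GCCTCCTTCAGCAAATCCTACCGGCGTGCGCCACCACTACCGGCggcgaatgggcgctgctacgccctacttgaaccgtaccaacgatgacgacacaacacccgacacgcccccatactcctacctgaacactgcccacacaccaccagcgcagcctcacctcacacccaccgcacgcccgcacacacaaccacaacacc

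The members were narrow, with a median width of 280 bp between the outermost summits (1 to 1376 bp), and they lay at a median of 28678 bp from the nearest protein-coding start (quartiles 14174 and 53210 bp). Of the members, 1061 (62.0%) lay between genes and 587 (34.3%) in introns, against 49.3% and 47.7% of the 71768 distal regions with fewer lists. Coding exons held 39 members (2.28%) and UTRs 24 (1.403%), against 1.42% and 1.59% of the other distal regions. Their share of the distal regions of a chromosome ran from 1.70% on chromosome Y to 2.88% on chromosome 6. The members were spread over 1447 nearest genes, with 9 at Pdia4, 7 at Ezh2 and 6 each at Dusp6, Eapp and Tex14.

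Distance from protein-coding starts did not mean distance from all starts. The annotation put 309 members (18.1%) within 1 kb of the start of some transcript, against 4.14% of the other distal regions. The gene types of these starts were led by lincRNA (103 members), processed transcripts (42), antisense genes (31) and TEC genes, which await experimental evidence (31), and 25 were snRNA genes. The Meis2 member started at 2810405F15Rik and a Dusp6 member at B530045E10Rik, neither of which is annotated as protein-coding.

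The lists were of unequal length, with 13763 to 54676 summits (median 38436), and most absences of members fell in 3 short lists. The 1711 members were missing 1671 times in all, and 1348 of these absences (80.7%) fell in the lists of E10.25 CKO 2, E10.5 Anterior and E10.25 CKO 4. E10.25 CKO 2, with 15626 summits, lacked 735 members (43.0%), E10.5 Anterior, with 13763 summits, lacked 476 (27.8%) and E10.25 CKO 4, with 19734 summits, lacked 137 (8.01%). Of the constitutive regions 5 kb or less from a start, these lists lacked 11.8%, 19.7% and 6.49% in the same order. E10.25 CKO 2 thus lacked more members than the shorter E10.5 Anterior list but fewer regions near starts. In the other 29 lists together 1419 members were present every time. Control anterior 4 and E10.25 CKO 3 held all members. The lists used here carry no read counts, so depth is not known, and a missing summit means only that none was called.

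E9.5 HL lacked more members than lists of similar length. Its list of 36947 summits missed 51 members (2.98%), whereas it missed 0.169% of the constitutive regions near starts. Etv2OE anterior 7, with 37159 summits, missed 9 members (0.526%) and E10.5 FL EYFP+ 1, with 37211, missed 11 (0.643%), so that E9.5 HL stood above both. The missing members had a median GC content of 47.5%, 5 (9.80%) were CpG-rich, 15 (29.4%) had the E-box word and 0 had the CTCF consensus. Members of the gene lists described later made up 5 of the 51, near Dusp6, Spry4 and Bmpr1b, in Bmp7 and in an Fmn1 intron near Grem1, and the Ror2 member was also missing. E9.5 HL was 1 library, so stage and library cannot be told apart.

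**Figure D1:**
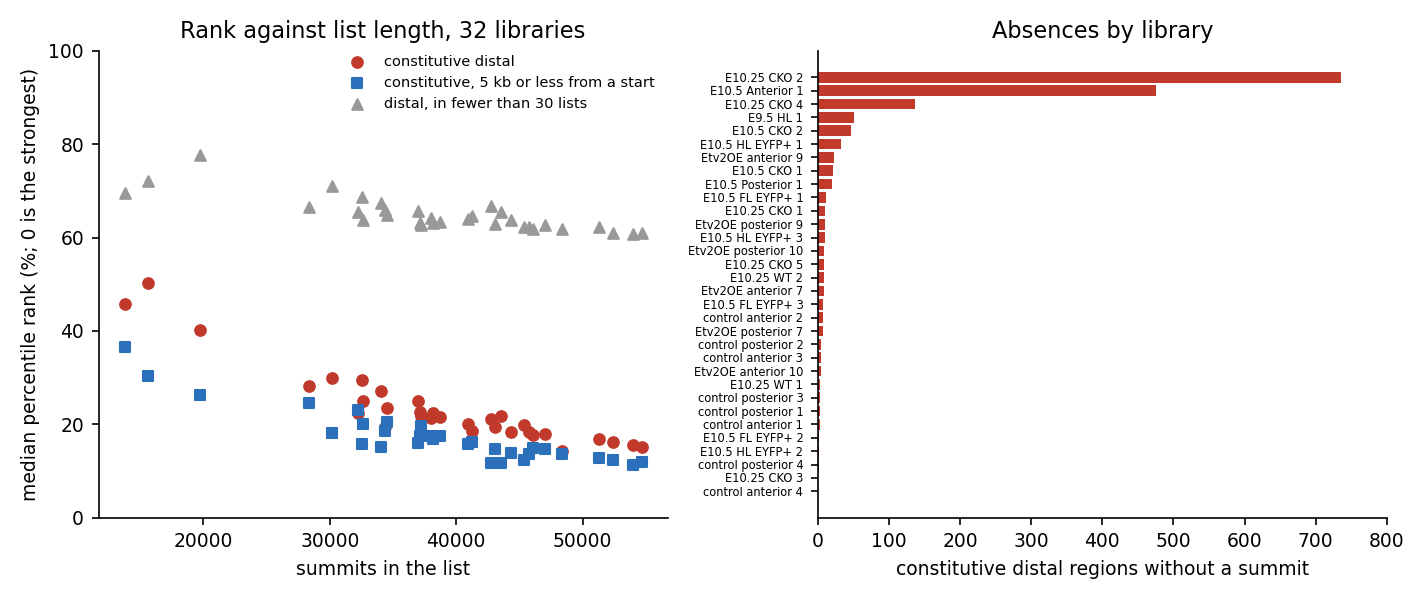
Left, median percentile rank (%, 0 is the strongest) of the constitutive distal regions, the constitutive regions 5 kb or less from a start and the other distal regions in each of 32 libraries, against the number of summits in the list; each point is 1 library. Right, number of the 1711 constitutive distal regions without a summit in each library, led by E10.25 CKO 2 with 735, E10.5 Anterior with 476 and E10.25 CKO 4 with 137.

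Summits were ranked within each list by the deposited −log10 q-value, with rank 1 the strongest, and the rank was divided by the list length to give a percentile rank. The median member had a percentile rank of 22% over its lists (quartiles 12% and 33.3%), and constitutive regions near starts had 16.3%. Ranks followed the number of lists, with medians of 30.8% for members in 30 lists, 23.2% in 31 and 13.2% in 32, and 35.7% for the distal regions in 29 lists. This is a description, since a weak region is more easily missed by a short list. The median rank of the members in a library ran from 6291 in E10.5 Anterior to 9600 in E10.25 CKO 1. The plot of rank against list length shows the members between the regions near starts and the other distal regions, with 1 exception, E10.5 HL EYFP+ 1, where the members stood at 22.5% and the regions near starts at 23.1%. In the 3 short lists the members stood at 40.2% to 50.3%, above every other library.

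The order of the members was shared within groups more than between them. Spearman's rho of the members' ranks was 0.505 to 0.877 (median 0.795) over the 36 pairs of libraries of 1 group and 0.244 to 0.853 (median 0.521) over the 460 pairs of different groups. The 6 pairs of control posterior libraries lay between 0.840 and 0.852 and those of control anterior between 0.795 and 0.841. The 10 pairs of E10.25 CKO libraries were the most uneven (0.505 to 0.818). These are descriptions across regions, which share base composition and list length within a library.

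The members were richer in GC and CpG than any class of distal regions with fewer lists. In the 200-bp window on the median summit, the median GC content was 55.5% for members, 51% for distal regions in 20 to 29 lists, 49.5% for 10 to 19 lists and 47.5% for those of 1 list, against 66.0% for constitutive regions near starts. A window was called CpG-rich when its GC content was at least 50% and its ratio of observed to expected CpG at least 0.6. By this measure 534 members (31.2%) were CpG-rich, against 15.8% of the distal regions in 29 lists, 11.2% in 20 to 29 lists and 2.96% in 1 list. Constitutive regions near starts reached 84.1%, and those 100 kb or more from a start 11.7%. Of the CpG-rich members, 169 (31.7%) lay within 1 kb of some annotated start, against 11.9% of the other members. Of the members in 32 lists, 47.1% were CpG-rich, and of those in 30 lists 19%.

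Words of 24 transcription factor motifs were searched on both strands of the same windows, and matches are given as descriptions of the letters. SP and KLF factors were given by GGGCGG, NF-Y by CCAAT, and the E-box of TWIST and HAND factors by CATCTG. LIM-homeodomain factors were given by TAATTA. Zinc finger factors of the GATA family were given by AGATAA and, as the other form, TGATAA. TCF and LEF factors were given by CTTTGAA and, as the other form, CTTTGAT. CREB was given by TGACGTCA, the ETS factor GABPA by CCGGAAGT, and NRF1 by GCGCATGCG. The ETV2 word, taken from ETS sites of the Shh limb enhancer, was AGGAAAT or AGGAAGT after any letter but T. CTCF was searched by its 12-letter consensus, and some forms of it contain CATCTG, and its core was also searched alone as AGGGGGC. Of the members, 180 held no word of the 24.

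GC-rich words known from promoters were more frequent in members than in the distal regions with fewer lists. The SP and KLF word stood in 496 members (29%), against 18.1% of the distal regions in 29 lists, 14.9% in 20 to 29 lists, 7.36% of all distal regions with fewer than 30 lists and 65.8% of the constitutive regions near starts. Among CpG-rich members 302 (56.6%) had it, and among the others 16.5%. The CCAAT box was in 482 members (28.2%) against 24% of the other distal regions and 37.4% near starts. Among rarer words known from promoters, NRF1 was in 19 members (1.11% against 0.141%), CREB in 25 (1.46% against 0.258%) and GABPA in 20 (1.17% against 0.263%), whereas the YY1 word was in 11 (0.643%) against 1.17%.

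Words of developmental factors were less frequent in members than in distal regions with 20 to 29 lists. The E-box word of TWIST and HAND factors was in 333 members (19.5%) against 25.2%, and the homeodomain word in 106 (6.20%) against 11%. Over all distal regions with fewer than 30 lists these shares were 20.4% and 8.50%. GATA words were in 116 members (6.78%) against 10.23%, and this share was 18.6% in regions of 1 list and 15.9% over all with fewer than 30 lists. TCF and LEF words, which respond to Wnt signals, were in 123 members (7.19%) against 9.63%, and 8.96% over all with fewer than 30 lists. The ETV2 word was in 168 members (9.82%) against 12.3%, and in 10.8% of all distal regions with fewer than 30 lists. Constitutive regions 100 kb or more from a start differed from the members in this, with the homeodomain word in 16.8% and the E-box word in 25.8%. No test was made of these shares, because the classes were set by the same lists.

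The shares of the other 12 words are given for members and for all distal regions with fewer than 30 lists. CAGCTG, the E-box of MYF5 and related factors, was in 17.4% of members and 16.05% of the others. GGAATG, the TEAD word, was in 11.7% and 13.5%. TGACAG, the word of MEIS and TGIF factors, was in 12.9% and 15.8%. AGGTCA, the nuclear receptor word, was in 12.6% and 13.7%. The HOX word, TTTATGG with its other form TTTATTG, was in 7.72% and 10.15%. The ISL1 word, CTAATGG with its other form CTAATTG, which can overlap a homeodomain word, was in 6.02% and 5.47%. TGANTCA, the AP-1 word, was in 3.97% and 5.90%, and TGTGGTT, the RUNX word, was in 3.92% and 4.46%. The remaining words were in few regions of either kind. AANATGGCG, the YY1 word, was in 0.643% and 1.17%, and GTTGCCATG, the RFX word, was in 1.23% and 0.543%. TTCAGCACC, the word of the neuronal repressor REST, was in 1 member and in 0.358% of the others. CCCAGAATG, the ZNF143 word, was in 0.292% and 0.261%.

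**Figure D2:**
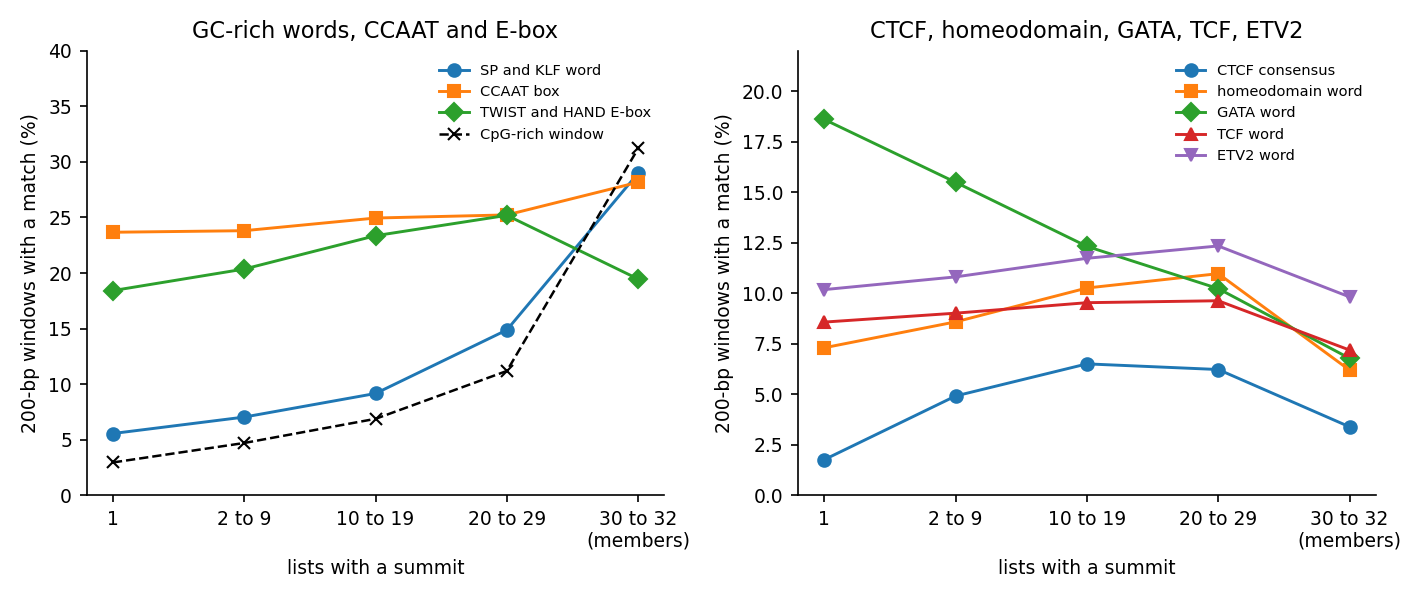
Share (%) of 200-bp windows with a match, for distal regions grouped by the number of lists with a summit, from 1 list to the members with 30 to 32 lists. Left, the SP and KLF word and CpG-rich windows reach 29% and 31.2% in members; right, the CTCF consensus peaks at 6.50% in regions of 10 to 19 lists and stands at 3.39% in members, and the homeodomain and GATA words fall to 6.20% and 6.78%.

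The CTCF consensus was less frequent in members than in distal regions with 2 to 29 lists. It was found in 58 members (3.39%), against 6.23% of the distal regions in 20 to 29 lists and 6.50% in 10 to 19 lists. The share was 4.92% in 2 to 9 lists and 1.77% in 1 list. Over all distal regions with fewer than 30 lists it was 4.01%, near the share of the members. Constitutive regions near starts had it in 0.867% and those 100 kb or more away in 0.966%. Within the members the share was 5.21% in those of 30 lists and 1.73% in those of 32, so only 10 of the 58 had a summit in every list. With the 3 short lists set aside the share was 4.37%. The core word alone was in 146 members (8.53%), close to the 8.18% of the regions in 20 to 29 lists. Over all distal regions with fewer than 30 lists the core word was in 5.23%.

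The place of the consensus in the members also differed from that in the less shared regions. The median distance between the match and the median summit was 39 bp, and 22 matches (37.9%) lay 20 to 40 bp from it. In distal regions of 20 to 29 lists, 239 of 344 matches (69.5%) lay in that interval, and in those of 10 to 19 lists 437 of 636 (68.7%). Along the strand of the motif, 16 members (27.6%) had the match 20 to 40 bp before the summit, against 43.6% and 46.9% in these classes. Matches over 40 bp from the summit made up 50.0% in members and 25.9% and 19.8% in the other classes.

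**Figure D3:**
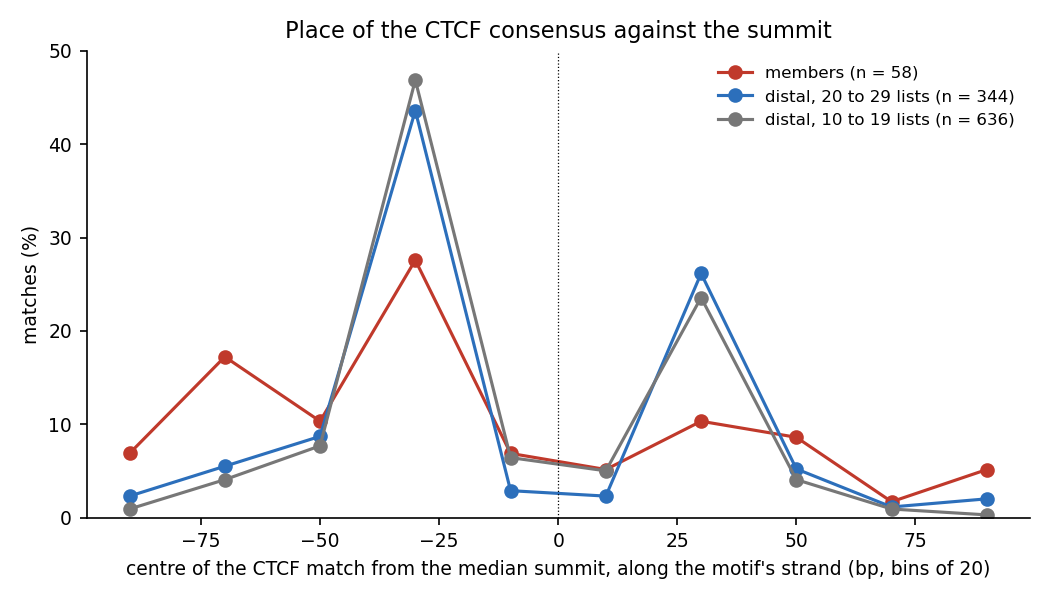
Share (%) of CTCF consensus matches in bins of 20 bp by the distance of their centre from the median summit, along the strand of the motif, for 58 members and for distal regions of 20 to 29 lists (n = 344) and 10 to 19 lists (n = 636). The bin from 40 to 20 bp before the summit holds 27.6% of the members' matches and 43.6% and 46.9% of the others.

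The sharpest CTCF members had summits that varied by a few bases between libraries. The spread of summit position, as the interquartile range over libraries, was 4.25 bp near Piwil4, 5 bp near Glrx, 6 bp near Cavin2, 6.75 bp near Gm15319 and 7.5 bp near Uck2, against a median of 57.4 bp for the CTCF members and 66.5 bp for the other members. Their median percentile ranks were spread from 0.189% near Gm15319, where 81.8% of the 31-base words occur more than once in the genome, through 9.25% near Glrx, 19.1% near Cavin2 and 40.1% near Piwil4 to 43.5% near Uck2. A precise summit was therefore found at strong and at weak members. The widest CTCF members were near Tmem29 on chromosome X (262.5 bp), in an intron of Hpse2 near Hps1 (201 bp) and near Zfp810 (171 bp). CTCF members as a whole ranked like the others, with medians of 23% and 22%, and 32.8% of them were CpG-rich.

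The best ranks belonged to repeated sequence. A window was called repeated when over 50% of its 31-base words occurred more than once in the genome, which held for 128 members (7.48%), 3.89% of the distal regions in 20 to 29 lists and 15.2% of those in 1 list. Repeated words filled 17 of the 20 best-ranked members, 43 of the best 100 and 56 of the best 200. The repeated members had a median percentile rank of 10.1%, and the 1547 members with neither repeated words nor small RNA genes had 22.7%. The study kept only reads that aligned uniquely.

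The member with the best median rank was a single base near Rpusd4 at chr9:35305456-35305456, on which the summits of all 32 lists fell. Its percentile rank was 0.0122% in the median library, its rank lay between 2 and 12, and its window was wholly masked as repeat. The members in an intron of Myo3a at chr2:22589669-22589719 and chr2:22588006-22588051, with Gad2 as nearest gene, had 0.0142% and 0.0190%, and 87.0% and 86.4% of their 24-base words occur in the mitochondrial genome. Near Gm5426 at chr10:96077670-96077675 this share was 70.1% and the rank 0.0436%. The Myo3a member at chr2:22589669-22589719 ranked 3 to 7 in the reporter, control and Etv2OE libraries and 7 to 20 in the others. Such stretches are nuclear copies of the mitochondrial genome, and 4 of the 71768 other distal regions held over 50% of mitochondrial words. The member in an intron of Chl1 at chr6:103649199-103649213 had a rank of 0.0170%.

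Runs of telomere repeat made up 9 members, against 3 of the 71768 other distal regions. Their median percentile ranks lay between 0.0430% and 0.103%, and each stood between genes, near Tmem196, Mrgprd, Gm45871, Wls, Gm21060, Gm14496, A630089N07Rik, Asmt and Vmn2r87. The Tmem196 member ranked 10 to 20 in 31 libraries and 295 in E10.25 CKO 4. It thus held nearly the same place in every list but that short one. A summit in 32 lists was found for 5 of the 9.

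**Figure D4:**
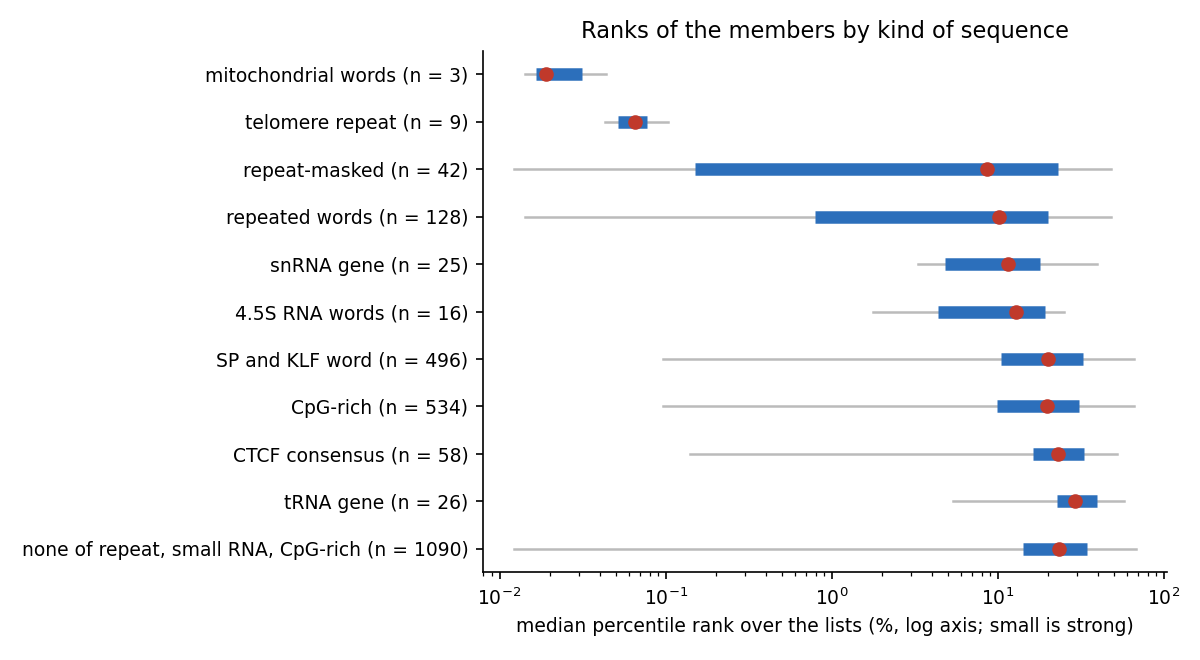
Median percentile rank over the lists (%, log axis, small is strong) of constitutive distal regions by kind of sequence; the red point is the median, the blue bar the quartiles and the grey line the range, and n is the number of regions. Members of mitochondrial words and telomere repeats lie at or under 0.103%, and the members with none of the repeat, small RNA or CpG-rich features (n = 1090) have a median of 23.4%.

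Outside repeats, the best rank near a gene of the limb lists was at Axin2, a target and inhibitor of Wnt signalling. Its member at chr11:109011707-109011925, 88526 bp from the Axin2 start, had a median percentile rank of 0.146%, a GC content of 64.5% and 0% repeated words. Its rank lay between 20 and 96 in 30 libraries and was 216 in Etv2OE posterior 7 and 241 in E10.5 FL EYFP+ 1. The other members of this kind were chosen after their values were seen. They were near Zbtb20 (0.331%), a zinc finger repressor, near Zfp869 (0.399%) and in an intron of Uggt2 (0.421%), a glycosylation sensor, each with 0% repeated words. At the weak end stood the members near Snai1, Stx16 and Llph, with 68.1%, 66.9% and 66.3%. The Snai1 member was missing from E9.5 HL and E10.25 CKO 2 and ranked from 9376 to 37072 elsewhere.

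Genes of small RNAs overlapped 53 members (3.10%), against 0.280% of the other distal regions. The snRNA genes, whose RNAs splice messenger RNA or process ribosomal RNA, overlapped 25 members (1.46%) and 8 of the 71768 other distal regions. Their median percentile rank was 11.6%, and 18 of the 25 had a summit in 32 lists. The following examples were chosen after their values were seen. Rn7sk, the gene of the 7SK RNA that holds back transcription elongation, had 3.68%, and Rnu2-10, a U2 gene, had 3.88%. At Tex14 on chromosome 11, 6 members stood over Rnu1a1, Gm22068 and the U3 genes Rnu3b1, Rnu3b3, Rnu3b4 and Rnu3b2 with 15%, 18%, 3.32%, 4.43%, 4.55% and 4.11%. The 4 U3 copies were thus stronger than the U1 copy beside them, but near-identical copies can share reads, so these values are uncertain.

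The tRNA genes overlapped 26 members (1.52%), against 0.634% of the distal regions in 20 to 29 lists, 0.145% of all with fewer than 30 lists and 0.0287% in 1 list. Their median percentile rank was 29.1%, weaker than the 11.6% of the snRNA genes, and 9 of the 26 had a summit in 32 lists. The strongest was the histidine tRNA gene n-THgtg4 near Shf, with 5.38%, and the weakest was n-TLaag7 near Trim27, with 57.4%. Chromosome 13 held 4 tRNA members at Trim27. These examples were also chosen after their values were seen.

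Clusters of members were few and mostly made of small RNA copies. Another member lay within 20 kb of 229 members (13.4%), and 40 members (2.34%) fell into 7 clusters of at least 4. The largest clusters were neighbours on chromosome 6, with 9 members near Pdia4 (chr6:47739973-47788567) and 7 near Ezh2 (chr6:47654983-47685457). All 7 at Ezh2 and 5 of 9 at Pdia4 shared 24-base words with the annotated 4.5S RNA gene Rn4.5s, whose product is a small rodent RNA. Their members followed each other at median gaps of 4331 and 4432 bp, and their words had a median of 16 copies in the genome. Clusters at Tex14 and Eapp held 6 snRNA members each and that at Mreg and Pecr held 4. Those at Acot11 and Ssbp3 and at Tmem132c, with 4 members each, held neither snRNA nor repeated words.

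Of 203 genes in 12 lists of limb, signalling and other lineage genes, 190 were in the annotation, and 48 were the nearest or host gene of 73 members. These members had a median percentile rank of 24.7%, and 21 had a summit in 32 lists. They lay between genes (43) or in introns (29), with 1 in a UTR of Ctif near Smad7. None of the 73 had the CTCF consensus or fell in the class with over 50% repeated words, although the Smo member was 98.0% masked and 47.65% of its words were repeated. SP and KLF words were in 14 (19.2%) and CpG-rich windows in 12 (16.4%), which is less than in all members (29% and 31.2%). The E-box word was in 19 (26%) and the TCF and LEF word in 11 (15.1%), against 19.5% and 7.19% of all members. The homeodomain word was in 4.11%. Nearness does not show that a member acts on the gene.

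Patterning factors held 9 members at 7 of 22 genes, and limb identity factors 2 at 1 of 4. Hand2, the posterior factor that acts upstream of Shh, had 3 members with median percentile ranks of 50.5% at chr8:57312273-57312926, 30.7% at chr8:57328513-57328748 and 19.1% at chr8:57353733-57353969. The first stood at 29.6%, 70.8%, 32.3% and 29% in control anterior and at 58.6%, 48.9%, 64.7% and 52.6% in control posterior. It was stronger in 3 anterior libraries than in any posterior one, but the groups overlapped through control anterior 2. The third ranged from 9.96% to 23.4% in control anterior and from 9.14% to 19.6% in control posterior, which also overlapped. All 3 were missing from the short E10.5 Anterior list. Tbx4, the hindlimb identity factor, had members at chr11:85876119-85876691 (12.7%) and chr11:85917133-85918099 (32.2%). Its first member was listed in forelimb reporter cells as well, at 2.86%, 11.7% and 25.3%, beside 1.15%, 9.95% and 11.7% in hindlimb reporter cells. Meis1, Meis2, Alx4, Irx5 and Zbtb16 had 1 member each, from 22.3% at Zbtb16 to 59.8% at Meis1. The 39 annotated Hox genes had 0 members. The rule leaves out regions 5 kb or less from any protein-coding start, and how many regions at Hox genes this removed was not counted.

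The hedgehog pathway had 5 members at 4 of 12 genes. Ptch1, the receptor and target of SHH, had an intron member at chr13:63528393-63528647 with 46.9%, and its range was 20.3% to 49.4% in control anterior and 19.5% to 60.2% in control posterior. Gli2, a transcription factor of the pathway, had an intron member at chr1:119033819-119034103 with 36.1%. Its percentile rank was 25.5% to 47.3% in control anterior and 14.7% to 19.8% in control posterior, so the posterior libraries were all stronger. However, the member did not pass the test across regions, and how many members separate in this way was not counted. Gas1, a co-receptor of SHH, had members of 7.06% and 20.8%. The Smo intron member, at the gene of the signal transducer, had 0.256% in masked sequence.

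The FGF pathway had 15 members at 7 of 15 genes, beside 13 each for the BMP and Wnt pathways. The share of all distal regions near these genes was not counted. Dusp6, the phosphatase that is induced by FGF and dampens it, had 6. The member at chr10:99299002-99299317 was the steadiest, with a summit in 32 lists and ranks of 771 to 10540. The member at chr10:99268995-99269460, 5764 bp from the start, ranked 1327 to 9175 in the reporter, control and Etv2OE libraries and 9721 to 23868 in E9.5 HL, E10.5 Posterior, E10.5 CKO, E10.25 CKO and E10.25 WT, without overlap, and was missing from E10.5 Anterior and E10.25 CKO 2. The part of cross and cell sorting in this split was not tested. The member at chr10:99285877-99286093 ranked 9694, 7698, 12994 and 22061 in control anterior and 25618, 24744, 29333 and 29238 in control posterior. These ranks again did not overlap, though the member was not called across regions. How many members or regions separate in these ways was not counted. Spry2, Spry4 and Fgfr2 had 2 members each, and Fgfr1, Etv4 and Spred2 had 1. Both Fgfr2 members lay in introns of Fgfr2 as annotated, but Plekha1 and Oat were the nearest starts, so they counted only by host gene.

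The BMP pathway had 13 members at 9 of 19 genes. Grem1, the BMP antagonist of the limb, had 2 members in introns of Fmn1 at chr2:113674718-113675014 (24.4%) and chr2:113693329-113693625 (32.4%), and Fmn1 itself had 1 at chr2:113497902-113498308 (22.5%). The Fmn1 member stood at 1.36% and 1.76% in E10.5 CKO and at 48.5% to 82.4% in Etv2OE anterior, 2 groups picked as extremes. Its rank was 386 and 608 in E10.5 CKO and 957 to 2584 in hindlimb reporter cells. In the controls it was 11516 to 22336, which overlapped the 12031 to 28291 of Etv2OE anterior and posterior together. The groups also differ in cross and cell sorting, whose part was not tested. Bmp4 had 1 member (24.5%), with 13.3% to 38.6% in control anterior and 7.41% to 18.6% in control posterior. Bmp7, Smad7 and Msx1, which is also on the list of mesenchyme regulators, had 2 members each, and Bmp2, Bmpr1b and Id1 had 1.

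The Wnt pathway had 13 members at 7 of 18 genes. Axin2 and Tcf7l1, a transcription factor of the pathway, had 3 each. The Tcf7l1 intron members had 13.2%, 38.5% and 2.72%, and the last, at chr6:72711697-72711924, stood at 0.378% to 10% in every library outside E10.25 except E10.5 Anterior, with 7.49% to 68.3% in E10.25 CKO and 12.4% and 14.4% in E10.25 WT. Sp8 and Tcf7l2 had 2 members, and Fzd1, Wnt5a and Wnt7a had 1. LIM-homeodomain and GATA genes had 1 member at Lmx1b, the dorsal limb factor, and 1 at Zfpm1, a GATA cofactor. ETS genes had 3, at Ets1 and Elf2, and the Elf2 member overlapped the tRNA gene n-TPagg5. Limb mesenchyme and cartilage regulators had 10 members at 7 of 16 genes, among them Twist2, Sox5 and Col2a1. Genes of other lineages had few, with Eya1 for muscle progenitors (25.4%) and Sox17 (7.14%) and Cdh5 (12.6%) for endothelium.

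**Figure D5:**
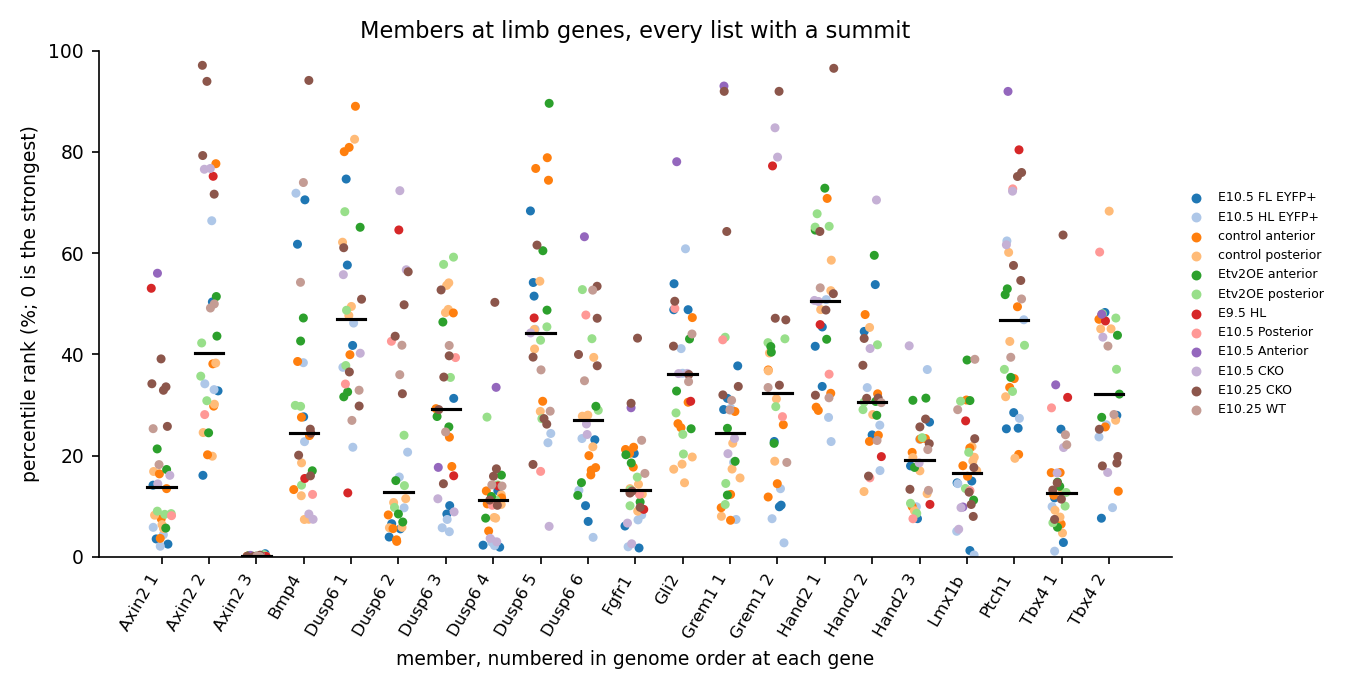
Percentile rank (%, 0 is the strongest) of 21 members near limb genes, numbered in genome order at each gene, in every list with a summit; each point is 1 library coloured by group, and the black line is the median. The Axin2 member farthest along the chromosome stays at or under 0.648% in all 32 lists, whereas the Dusp6 and Hand2 members spread over most of the axis.

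In the members with the most uneven ranks, some groups did not overlap and others did. The spread, as the interquartile range of percentile rank over lists, was 59.0% near Hmga2, 51.6% near Cox18 and 46.4% near Tm9sf3, in an intron of Pik3ap1. The Cox18 member at chr5:90163078-90163503 ranked 1783 to 7672 in the reporter cells, 474 and 1077 in E10.5 CKO and 3470 to 11296 in E10.25 CKO, but 27149 to 37034 in the controls and 22938 to 37141 in Etv2OE, where Etv2OE anterior 9 lacked it. The reporter and CKO libraries thus did not overlap in rank number with the controls or Etv2OE. For E10.25 CKO 2 and 4 this was fixed in advance, since their lists end at 15626 and 19734 summits. The member was chosen for its spread over these same lists. E10.25 WT, at 9068 and 8142, lay within the range of E10.25 CKO, and E9.5 HL (6844) and E10.5 Anterior (5891 in its short list) were also below the controls in rank number, whereas E10.5 Posterior stood at 37840. The Hmga2 member at chr10:120513703-120514457 ranked 1918 and 4252 in E10.5 CKO and 25705 to 52258 in the controls, and it was missing from Etv2OE posterior 7 and 9. It ranked 6505 to 29494 in the reporter cells and 23993 to 38372 in the other Etv2OE libraries, both of which overlapped the controls. The groups also differ in cross and cell sorting, whose part was not tested. The smallest spreads were those of the Rpusd4, Chl1 and Tmem196 members, at 0.00475%, 0.00517% and 0.0139%.

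Differences between groups were tested by limma on rank scores, in lists cut to equal length and over all merged regions, at an adjusted p of 0.05 by Benjamini-Hochberg. The rank score falls in equal steps from 1 at the top summit of a list towards 0 at its end, and is 0 for a region without a summit. The same libraries gave the presence by which members were chosen, although no contrast entered the choice. The labels do not say for every group that its libraries came from separate embryos or pools. The p-values measure the spread between these samples, which may be technical. A group whose libraries all score 0 for a region adds no spread of its own there. The control libraries entered 3 of the comparisons and the hindlimb reporter libraries 2. Counts at an unadjusted p under 0.05 are given for members only. The share over all tested regions was not counted, so these counts do not set the members apart from other regions.

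The anterior and posterior parts of the control hindlimb were compared to ask whether the members differ along the anterior to posterior axis. At 40000 summits a list, limma called 221 of 53236 regions (0.415%), 96 higher in anterior (0.18%) and 125 lower (0.235%). Of the 1711 members it called 5 (0.292%), 3 higher and 2 lower, and 237 members had an unadjusted p under 0.05. The count also rested on each library, since leaving out any one of the 8 gave 0 calls, except control anterior 2, without which it was 4, all lower in anterior. Members were thus called at a share near that of all regions. In whole lists the split was 2 higher and 14 lower, against 159 and 873 of 65320 regions. These fits had no replicate block. With the number shared in the labels as block, limma called 0 of 1711 members and 0 of 53236 regions.

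The ranks of the 5 members called without a replicate block did not overlap between the anterior and posterior parts. The test picked them on these same ranks, so the separation is not further evidence. How many members or regions separate in this way was not counted. Near Arhgap24, a gene of a RAC regulator, the member at chr5:102436413-102436839 ranked 31292, 25705, 30993 and 33141 in control anterior and 7785, 5059, 4378 and 8640 in control posterior. It was weaker in each anterior library than in any posterior one, with a rank score difference of -0.60 (SE 0.0828, limma adjusted p = 0.0307). Near Bcl2l14 the member ranked 6942, 7902, 9838 and 10728 in anterior and 2060, 673, 2332 and 2998 in posterior, with a difference of -0.17 (limma adjusted p = 0.0307). In an intron of Ror2, the receptor of WNT5A, the member ranked 5501, 6091, 5884 and 5746 in anterior and 11495, 13462, 12320 and 11800 in posterior, a difference of 0.16 (limma adjusted p = 0.0473). The members near 4933412E24Rik (0.15, limma adjusted p = 0.0307) and Crygf (0.24, limma adjusted p = 0.048) were also stronger in anterior. Their anterior ranks were 621 to 2484 and 3796 to 4326, and their posterior ranks 5779 to 9050 and 8334 to 17004.

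Etv2OE and control were compared in each part to ask whether induced ETV2 moved the constitutive regions. In the anterior part, with 30000 summits a list, limma called 0 of 1710 members tested and 0 of 37675 regions (0%), and 85 members (4.97%) had an unadjusted p under 0.05. In the posterior part, with 35000 summits, it called 0 of 1710 members and 0 of 43856 regions (0%), and 116 members (6.78%) had an unadjusted p under 0.05. The median rank score difference of the members was -0.000175 in the anterior and -0.00137 in the posterior part. The effect of Etv2OE was also compared between the parts by an interaction term, which limma called in 0 of 1711 members and 0 of 46310 regions, with 88 members at an unadjusted p under 0.05.

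Forelimb and hindlimb reporter cells, whose libraries share a number in the labels, were compared to ask whether the members differ between limbs. At 30000 summits limma called 0 of 1711 members and 0 of 37621 regions (0%), with 80 members at an unadjusted p under 0.05, and with that number as replicate block it called 0 members with 196 at that level. Hindlimb reporter cells and E10.5 CKO, at 25000 summits, gave 0 of 1705 members and 0 of 29724 regions (0%), whereas 256 members (15%) had an unadjusted p under 0.05. A p that misses the threshold does not show that the groups are alike, and sorting differed between these groups.

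E10.25 CKO and E10.25 WT gave the most calls. At 15000 summits limma called 525 of 18633 regions (2.82%), 62 higher in CKO (0.333%) and 463 lower (2.48%). Of 1630 members tested it called 34 (2.09%), 11 higher and 23 lower, and 248 had an unadjusted p under 0.05; the other 81 members were not within the lists of 2 libraries. The calls rested on few libraries, since leaving out E10.25 CKO 1, 3 or 5 or either E10.25 WT library gave 0, leaving out E10.25 CKO 2 gave 17 and leaving out E10.25 CKO 4 gave 31. Without both short lists, E10.25 CKO 2 and 4, it was 0. The split also moved with the scale, to 0 higher and 39 lower on the log2 of the rank, 6 and 40 in lists of 10000 summits, 6 and 7 with no filter on the number of libraries and 3 and 0 in whole lists. Over all regions the higher and lower calls were 8 and 544, 36 and 272, 39 and 265, and 18 and 2126 of 43404 in the same order. The labels date each E10.25 CKO library differently and both E10.25 WT libraries alike, so date and genotype cannot be told apart.

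The members lower in E10.25 CKO included those in introns of Cfap45 and Fam110b and near Zfp53, Zfand6 and Gnpda1. The Cfap45 member at chr1:172530642-172531034 ranked 20280, 15285, 17444 and 23864 in E10.25 CKO 1, 3, 4 and 5, was missing from E10.25 CKO 2, and ranked 7470 and 6563 in E10.25 WT. All CKO libraries stood outside the 15000 summits compared, so each scored 0 and their own spread did not enter the test. The difference was -0.53 (SE 0.0657, limma adjusted p = 0.0144). Members near limb genes that were lower were those near Spry2, an FGF inhibitor (-0.34, limma adjusted p = 0.0304), in an intron of Cdk14 near Fzd1, a Wnt receptor (-0.33, limma adjusted p = 0.0418), and in Zfpm1 (-0.23, limma adjusted p = 0.0424). The Spry2 member at chr14:105920902-105921272 ranked 10284 and 8916 in E10.25 WT and 13574 to 18628 in the CKO libraries that held it. The Zfpm1 member ranked 17230 to 19082 in the CKO libraries that held it, so all CKO scores were again 0.

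The named members that were higher in E10.25 CKO were stronger in each CKO library than in either WT library. They were called on these same ranks, so this is not further evidence. Near Lmx1b the member at chr2:33700780-33701139 ranked 2604, 3652, 7556, 2046 and 3860 in E10.25 CKO and 12676 and 13298 in E10.25 WT, a difference of 0.60 (SE 0.12, limma adjusted p = 0.0379). Near Tns1, the gene of a focal adhesion protein, the member at chr1:73862749-73863009 ranked 7546, 3520, 2713, 3594 and 2145 in E10.25 CKO and 22592 and 26906 in E10.25 WT, a difference of 0.74 (limma adjusted p = 0.0218). Those near Zfp324 (0.70, limma adjusted p = 0.0145) and in Maml3, near Mgst2 (0.44, limma adjusted p = 0.0267), were of the same kind.

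Copies of the 4.5S RNA gene made up 4 of the 11. Of all 16 members that shared words with this gene, 7 had a positive difference, and the median difference was -0.00674. At Ezh2 the 7 copies ranked 204 to 6106 in the E10.25 CKO libraries that listed them and 7229 to 15802 in E10.25 WT, where the copy at chr6:47672294-47672573 was not listed. Every listed E10.25 CKO rank was better than both E10.25 WT ranks of the same copy, although the copy at chr6:47685270 was missing from E10.25 CKO 4. Of the 7, 4 were called higher, led by the members at chr6:47672294-47672573 (0.81, limma adjusted p = 0.0144) and chr6:47654983-47655286 (0.60, limma adjusted p = 0.0144). The 5 copies at Pdia4, on the same chromosome and with shared words, overlapped between the groups, with ranks of 94 to 1409 in E10.25 CKO and 81 to 525 in E10.25 WT. The members with shared words near Klrb1c and Klrb1b overlapped as well. Copies of 1 sequence are not independent measurements.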

How the data were processed

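ATAC-seq libraries of 32 mouse samples were analysed from lists of MACS2 summits. Per the submitters' processing notes, the authors aligned reads to mm10 with Bowtie2 2.2.4, and per the methods they used uniquely aligned reads, took out duplicates with Picard and corrected positions for the Tn5 offset. Each deposited list gives 1-base summits of 1 library with the authors' −log10 q-value, and these values were used only to rank summits within a list, since they grow with depth. Depth is not known, and no interval was given for a library.

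Groups followed the labels, with labels ending in A and P read as anterior and posterior, as in the methods. Summits within 200 bp were merged, and 109 mitochondrial summits were left out of 1235080. Places, distances and sequence came from GRCm38.p6 with the GENCODE annotation. The members and gene lists were chosen with earlier results of these data known. Named regions were the 8 best and 3 worst median ranks, the 3 largest and 3 smallest rank spreads, the 5 smallest and 3 largest summit spreads among CTCF members, up to 5 calls in each direction of a comparison, and every member at a gene of the lists.

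Rank scores were tested with limma 3.58.1 (R 4.3.3), in lists cut to a common length, for regions with a summit in at least 2 compared libraries. Tables were made with Python 3.11.15, pandas 2.3.3, numpy 2.4.6 and scipy 1.17.1, and plots with matplotlib 3.10.9. The test was checked on simulated data. Anterior and posterior parts share a number in the labels with no embryo stated, and their same-number deviations correlated at 0.0940, 0.0507, 0.0135 and 0.0217 (other pairs -0.0452 to 0.0336). Forelimb and hindlimb reporter libraries also share a number and correlated at 0.277, 0.314 and 0.575 (other pairs -0.36 to 0.116). The main test left them unpaired, and the number entered as a block only in an alternative run. The alternatives were other list thresholds and lengths, windows and motif forms, the log2 of the rank, no filter, the replicate block and leaving out each library. A gene of the lists and the sequence of a member are not reported here.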

Additional observations from a re-analysis of the deposited data

Results flagged for a closer look

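For 24 sets of values, each within 1 group of libraries, a value far from the others was sought. Chance alone flags about 1 in 20, and the sets are not independent. The 3 values that stood out were all in E10.25 CKO. E10.25 CKO 2 lacked 735 members, far more than the other E10.25 CKO libraries, which lacked 0 to 137. In the same library 37.11% of members stood among the 10000 highest-ranked summits, the lowest share of its group. Its list of 15626 summits was also the shortest of the group, and the part of list length in these values was not tested. In another group, the shorter E10.5 Anterior list of 13763 summits lacked 476 members and had 57.1% among its 10000 highest-ranked summits. The Tns1 member at chr1:73862749-73863009 ranked 7546 in E10.25 CKO 1 and 2145 to 3594 in the other E10.25 CKO libraries.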

How the results depend on the processing

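The number of members followed the threshold. It was 2728 with at least 28 lists, 577 with all 32, 316 when only the 10000 highest-ranked summits of each list were used, and 2838 without the 3 short lists (chosen once the data had been seen). Leaving out 1 library gave 1713 to 2172. The share with the CTCF consensus was 1.987% in 100-bp windows, 11.1% with 1 mismatch allowed, 8.533% for the core word AGGGGGC, 1.733% with all 32 lists, 4.369% without the 3 short lists and 3.31% to 3.87% when 1 library was left out. The median percentile rank was 13.19% with all 32 lists and 87.2% in lists of 10000 summits with unlisted members at the last rank, and 21.8% to 24.2% when 1 library was left out. Calls between anterior and posterior control were 16 in whole lists and 0 in lists of 10000 summits, and 0 to 4 when 1 library was left out. Calls between E10.25 CKO and E10.25 WT were 3 in whole lists, 13 with no filter on the number of libraries, 0 without E10.25 CKO 2 and 4 (chosen after seeing the data) and 0 to 31 when 1 library was left out. The cause of these changes was not tested. The other comparisons gave 0 member calls in each alternative run, and the sign of the median difference of the members changed under some alternative in every comparison except hindlimb reporter cells against E10.5 CKO.

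With the replicate block, limma called 0 members between anterior and posterior control (239 at an unadjusted p under 0.05) and 0 between E10.25 CKO and E10.25 WT (427 at that level), where the libraries share only a number, as do the hindlimb reporter and E10.5 CKO libraries, which also gave 0. The effect of Etv2OE compared between the parts gave 0 calls (89 at an unadjusted p under 0.05) with the number as block, chosen after seeing the data. No paired analysis was possible because Etv2OE and control libraries of 1 part share no replicate number. Depth is not known, so an unlisted region is not shown to be closed.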
